A study of Mus musculus with 9 samples.

Results

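S100 genes encode small EF-hand proteins that change shape when calcium binds and then dock onto other proteins. The S100 genes examined here were S100a1, S100a4, S100a6, S100a10, S100a11, S100a13 and S100b, a list of 7 chosen with earlier results of these arrays known. Which result was used is not stated. The list is treated here as selected on differences between doxorubicin-treated and control cells. Values were taken from the transcript cluster (the probes grouped for 1 transcript) whose platform annotation gave that symbol alone, and each such member had 1 cluster. This gave 6 of the 7 members, out of 30050 genes in all and 17 S100 genes in all. S100a11 shared its cluster with the predicted genes Gm12854 and Gm5068, so it was not analysed here.

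The study used cultured cells that the labels name HL-1, a single line given there as mouse cardiomyocytes, with 3 arrays in each of 3 groups. Con cells received PBS, DOX cells received 0.3 µM doxorubicin, and DOX_IFNg cells received 0.3 µM doxorubicin together with 20 ng/ml interferon gamma. Doxorubicin is an anthracycline that damages DNA by trapping topoisomerase II, and interferon gamma is a cytokine that induces many genes of immune defence. There was no group with interferon gamma alone in the data used here, so both compared treatments carried doxorubicin. How long the cells were treated is not stated in those sources. Nor do they say that a group's arrays came from separate cultures, so each p-value reflects array-to-array spread that could be purely technical.

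S100 proteins act inside the cell as calcium-dependent partners of cytoskeletal, membrane and signalling proteins, and several also act outside it on surface receptors. In heart muscle, S100a1 is the best known member. It binds the calcium pump Atp2a2 and the ryanodine receptor Ryr2 and supports contraction. S100a4, also called fibroblast-specific protein 1, binds nonmuscle myosin and p53 and is used as a marker of fibroblasts and of motile cells. S100a6 is induced in proliferating cells, S100a10 forms a complex with the annexin Anxa2, S100a13 takes part in the release of Fgf1, and S100b is abundant in glia.

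Values are read as log2 expression, unchanged from the authors' deposit, so a difference of 1 is a 2-fold change. To tell dim from detected genes, a limit was set at the 95th percentile of 1714 olfactory and vomeronasal receptor genes, which lay at log2 4.69. Of all genes, 40.4% had a mean above it. The markers went against the cardiomyocyte label. Of 10 cardiomyocyte markers 3 lay above the limit (Nkx2-5, Tnnt2 and Actn2), while Myh6, Nppa, Myl7, Myl4, Tnni3, Gata4 and Ryr2 had means of 4.03 to 4.60, under it. Of 7 measured skeletal muscle markers 5 lay above it, among them Myog, Acta1 and Myod1, with Con means of 8.18, 8.41 and 6.03. Fibroblast markers were above it in 5 of 9 measured, leukocyte markers in 1 of 8, and glia and Schwann cell markers in 1 of 4. The cells are therefore called by their label, HL-1, only. Array medians lay between 4.08 and 4.17. Con replicate 3 and DOX_IFNg replicate 1 stood somewhat apart from their groups on the second principal component (-23.5 against 11.3 and 21.1, and 19.7 against 0.36 and -8.41). The highest value was exactly 19.9315 on 6 arrays, against 19.9079 and 19.8161 on Con replicates 2 and 3 and 19.9262 on DOX_IFNg replicate 3.

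The promoter windows of the members that differed most are shown first, since S100a4 and S100a6 lie close together in 1 gene cluster on chromosome 3. Both were read from RefSeq sequences of build GRCm38.p6, plus strand, and cover the 250 bases before the annotated start, S100a4 at chr3:90603520-90603769 and S100a6 at chr3:90612644-90612893. Capitals mark matches to the motifs searched. The TATA box was searched as TATAAA on both strands. The E-box was searched as CANNTG, which also covers the other strand. The GC box was searched as GGGCGG and the AP-1 site as TGANTCA, again on both strands. No printed matches overlap.
S100a4: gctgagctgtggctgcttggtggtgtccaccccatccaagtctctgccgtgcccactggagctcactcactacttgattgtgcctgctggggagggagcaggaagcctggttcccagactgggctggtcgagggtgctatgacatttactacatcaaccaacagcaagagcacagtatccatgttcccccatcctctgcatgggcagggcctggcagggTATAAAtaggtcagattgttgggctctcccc
S100a6: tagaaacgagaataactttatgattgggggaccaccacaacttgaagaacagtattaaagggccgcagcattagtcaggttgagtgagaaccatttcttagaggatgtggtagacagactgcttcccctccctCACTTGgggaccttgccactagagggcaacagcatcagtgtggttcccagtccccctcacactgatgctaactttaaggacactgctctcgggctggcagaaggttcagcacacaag

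With the start counted as 1 and the base before it as -1, the window of S100a4 held TATAAA at -31 and none of the other motifs. The window of S100a6 held CACTTG at -117 and, in the transcribed stretch not printed, CACGTG at 15, both of the E-box form, and no TATAAA. Over the 300 bases that run from 250 before to 50 after a start, 13.6% of 32851 mouse promoter windows held TATAAA, 72.3% an E-box, 35.7% a GC box and 7.81% the AP-1 letters. Of the 6 measured members, 5 had a window in the table. S100a1 and S100a13 start close together on opposite strands, and their windows overlap by 204 bases. The window of S100a1 held none of the motifs, that of S100a13 held CAAATG at -183, and that of S100b held CAGTTG at -113. These matches describe letters in a window and were not tested for binding.

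S100a4 differed most between groups among the members. Its log2 expression was 9.36, 9.60 and 9.74 on the Con arrays, 6.30, 6.87 and 6.45 on the DOX arrays, and 6.16, 5.55 and 6.16 on the DOX_IFNg arrays. Each Con array lay far above every treated array, and the treated arrays stayed above the receptor limit. The group means were 9.57 ± 0.19, 6.54 ± 0.29 and 5.96 ± 0.35 (SD, n = 3). DOX minus Con was -3.03 on the log2 scale (SE 0.20), which is 8.14-fold lower, with a 95% interval of -3.49 to -2.56. With interferon gamma added the level was 12.2-fold lower than in Con (-3.61, SE 0.20). Among 30050 genes, S100a4 ranked 7 from the lowest in DOX minus Con and 3 from the lowest in DOX_IFNg minus Con. Both comparisons share the Con arrays, and the member is treated as selected on this difference, so these values are a description.

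S100a6, calcyclin, lay lower in both treated groups by a much smaller amount. Its values were 7.76, 7.62 and 7.74 in Con, 7.09, 7.28 and 7.07 in DOX, and 6.88, 6.97 and 7.14 in DOX_IFNg. The Con arrays lay above all treated arrays, and the treated groups overlapped each other. The means were 7.71 ± 0.08, 7.14 ± 0.12 and 7.0 ± 0.13 (SD, n = 3). DOX minus Con was -0.56 (SE 0.09), a 1.48-fold lower level, and DOX_IFNg minus Con was -0.70 (SE 0.09), 1.63-fold lower.

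Within the DOX group, DOX replicate 2 was the highest array for S100a4 (6.87) and for S100a6 (7.28). Within DOX_IFNg the pattern was not shared: replicate 2 was the lowest for S100a4 (5.55), while replicate 1 was the lowest for S100a6 (6.88).

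**Figure D1:**
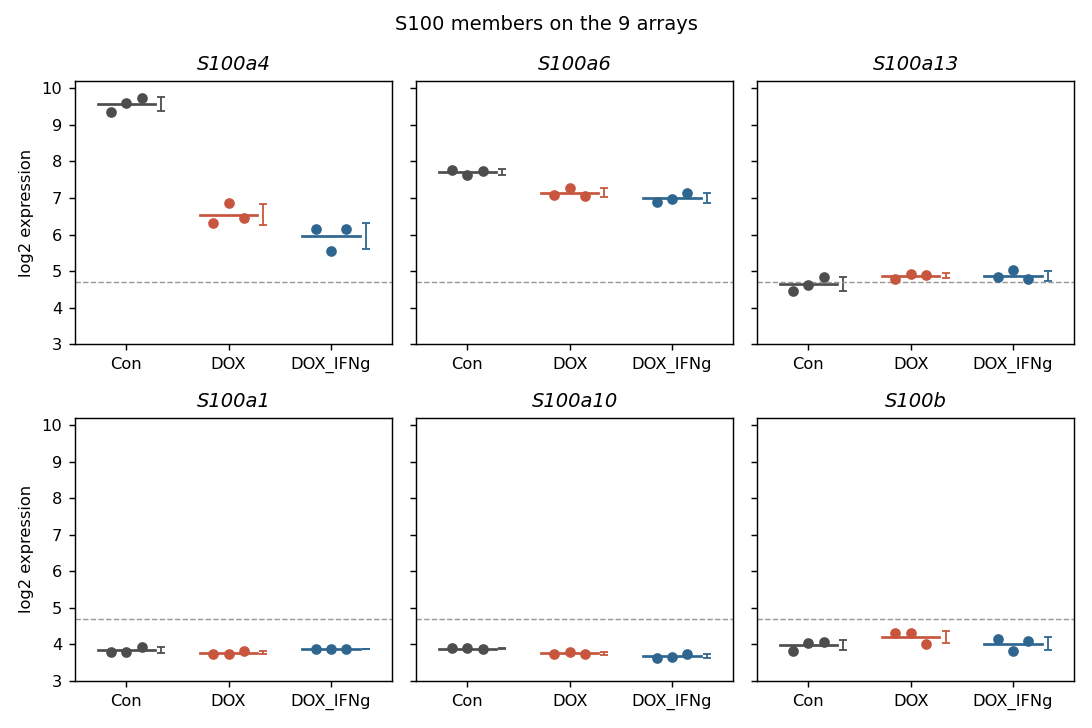
Log2 expression (y axis) of the 6 measured S100 members on each of the 9 arrays, by group (x axis). Points are arrays, horizontal lines group means, bars at the right of each group the SD, and the dashed line the receptor limit of 4.69. S100a4 lies between 9.36 and 9.74 in Con and between 5.55 and 6.87 on the treated arrays, S100a6 differs less, and S100a1, S100a10 and S100b lie under the limit throughout.

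S100a13, a secreted member that binds copper as well as calcium, lay around the receptor limit. Its values were 4.46, 4.63 and 4.84 in Con, 4.80, 4.92 and 4.90 in DOX, and 4.83, 5.02 and 4.77 in DOX_IFNg. Con replicate 3 overlapped both treated groups. The DOX mean was 0.23 higher than that of Con (SE 0.10, 95% interval -0.01 to 0.47), and the DOX_IFNg mean was 0.23 higher as well.

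S100a1, the heart muscle member, gave no signal above the limit on any array. It lay between 3.78 and 3.93 in Con, between 3.74 and 3.83 in DOX and between 3.86 and 3.87 in DOX_IFNg, a whole range of 0.19. DOX minus Con was -0.06 (SE 0.06). Of its calcium handling partners, Ryr2 lay under the limit as well, with a mean of 4.03, and Atp2a2 lay above it, with a mean of 9.62.

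S100a10, the annexin 2 light chain, was also under the limit, at 3.89, 3.89 and 3.87 in Con, 3.73, 3.8 and 3.74 in DOX, and 3.63, 3.66 and 3.75 in DOX_IFNg. The Con arrays lay above the treated arrays, though the gap was small: DOX minus Con was -0.13 (SE 0.05) and DOX_IFNg minus Con was -0.20 (SE 0.05). Values this near background can understate a change, and whether they hold any S100a10 signal was not tested. S100b, the glial member, ranged from 3.82 to 4.06 in Con, from 4.02 to 4.31 in DOX and from 3.83 to 4.15 in DOX_IFNg, with all groups overlapping and DOX minus Con at 0.23 (SE 0.12).

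By limma, fitted to all genes and called at a Benjamini-Hochberg adjusted p under 0.05, 2 of the 6 members, S100a4 and S100a6, were called lower in DOX minus Con and 0 higher, where 15.6% of all genes were called (7.53% lower, 8.06% higher). In DOX_IFNg minus Con, 3 of 6 were called lower, S100a10 being the third, where 17.4% of all genes were called and 9.41% were called lower and 8.01% higher. Calls depended on brightness over the whole table: in DOX minus Con 33.0% of genes above the receptor limit were called and 3.81% of those at or under it. Groups did not overlap in 3 of 6 members in each of these comparisons, all of them lower, against 17.2% of all genes lower, 15.7% higher and 32.9% either way in DOX minus Con. In DOX_IFNg minus Con these shares were 18.5%, 14.5% and 33.0%. Since the members are treated as selected on these comparisons, nothing is read from their counts. The call of S100a10 in DOX_IFNg minus Con was lost in a fit of the compared groups alone (adjusted p = 0.0562) and when any of Con replicates 1 and 2 and DOX_IFNg replicates 1 and 2 was left out (limma adjusted p from 0.0573 to 0.0791). S100a13, by contrast, was called in that comparison with array weights (0.30, adjusted p = 0.0439) and without Con replicate 3 (0.33, adjusted p = 0.0495).

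Whether interferon gamma changed S100 expression on top of doxorubicin was tested with the same limma fit. The DOX and DOX_IFNg arrays also entered the differences on which the members are treated as selected. This test is therefore not taken as independent of that selection. None of the 6 members was called (adjusted p from 0.976 to 0.999), and 0.0% of all 30050 genes were, with 1503 genes (5.0%), S100a4 among them, at an unadjusted p under 0.05. For S100a4 the DOX_IFNg arrays (5.55 to 6.16) lay below the DOX arrays (6.30 to 6.87) without overlap. The difference was -0.58 (SE 0.20, interval -1.05 to -0.12), 1.5-fold lower, with a limma adjusted p = 0.976, and the exact two-sided permutation test gave p = 0.1, the smallest that 3 against 3 arrays allow. Across all genes, the groups did not overlap in 11.2%, with DOX_IFNg lower in 6.69%. Without DOX_IFNg replicate 2, the lowest array, the S100a4 difference was -0.38, and without DOX replicate 2 it was -0.42.

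The other members differed less between these groups. S100a6 differed by -0.14 (interval -0.34 to 0.06), S100a10 by -0.08 (-0.19 to 0.03), S100b by -0.19 (-0.45 to 0.08) and S100a13 by 0.00 (-0.23 to 0.24). S100a1 differed by 0.10 (-0.03 to 0.23), and its DOX_IFNg arrays lay just above its DOX arrays, within the dim range; 4.56% of all genes had such separation upward. The far ends of these intervals correspond to 1.37-fold lower for S100b and 1.27-fold lower for S100a6. Irf1, a direct target of interferon gamma signalling, lay at 3.88 ± 0.01 in DOX and 4.02 ± 0.07 in DOX_IFNg, under the limit in both. The difference was 0.14 (limma unadjusted p = 0.0419, adjusted p = 0.976), and its DOX_IFNg arrays lay above its DOX arrays without overlap. Only the brighter of the 2 clusters of Irf1 was read.

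**Figure D2:**
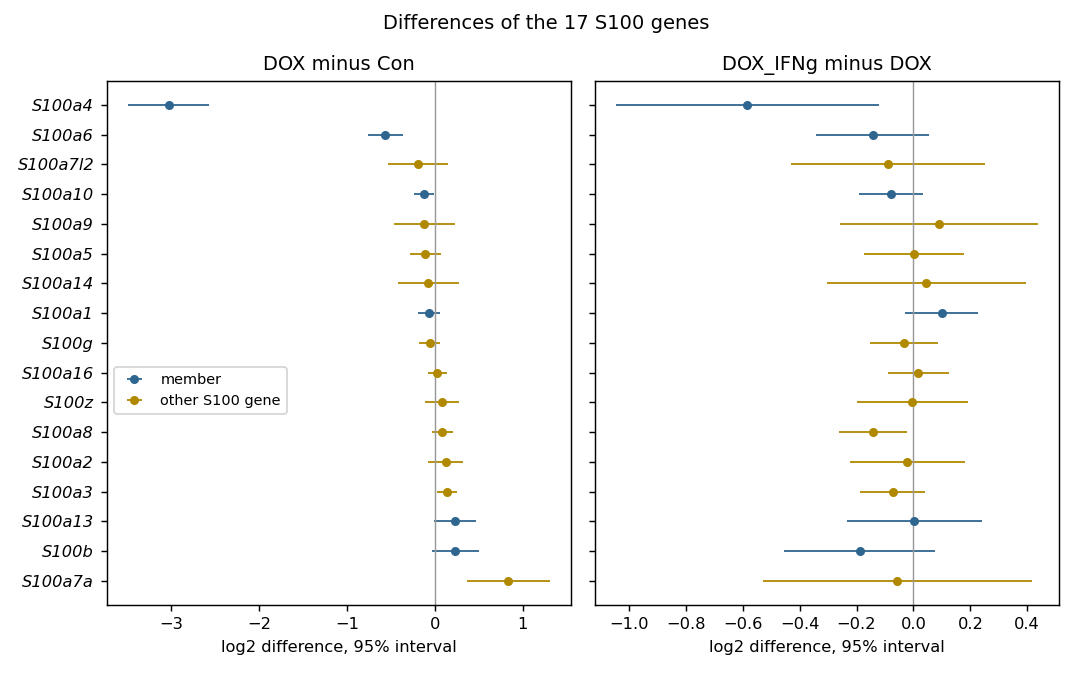
Log2 differences with 95% intervals from limma (x axis) of the 17 S100 genes (y axis), for DOX minus Con on the left and DOX_IFNg minus DOX on the right, on different scales. Members are blue and other S100 genes ochre; S100a4 at -3.03 and S100a7a at 0.83 mark the ends on the left, and on the right 15 of the 17 intervals reach zero or cross it.

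Outside the members, the family was dim. Of 10 further S100 genes on the prepared list, 1 had a mean over the 9 arrays above the receptor limit, S100a7a, a skin-type S100 protein of the psoriasin group, and it did so through the treated arrays. It lay at 4.47, 4.29 and 4.30 in Con, 5.46, 5.45 and 4.66 in DOX, and 4.92, 5.17 and 5.30 in DOX_IFNg. All treated arrays lay above all Con arrays, with DOX replicate 3 closest to them. The Con arrays and DOX replicate 3 lay under the limit of 4.69, so the size of the change is uncertain. It rose by 0.83 in DOX minus Con (SE 0.21, limma adjusted p = 0.0266), opposite in direction to S100a4 and S100a6. That call was lost in a fit of DOX and Con alone (adjusted p = 0.0572), with the shared highest value of the arrays as a term (0.0879), and when any of Con replicates 2 and 3 and DOX replicates 1 and 2 was left out (0.0705 to 0.0985).

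The remaining 9 genes did not pass the test in DOX minus Con. S100a8 and S100a9, the paired calcium-binding proteins of neutrophils and macrophages, had differences of 0.09 and -0.12, S100a3 0.13, S100a5 -0.11, S100a14 -0.07, S100a16 0.03, S100a7l2 -0.19, S100g -0.06 and S100z 0.08. The median of the 10 genes was -0.02 against -0.01 for all genes. In DOX_IFNg minus DOX none of the 10 was called (adjusted p from 0.976 to 0.999), with 1, S100a8 (-0.14), at an unadjusted p under 0.05.

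In RefSeq order, S100a4 is flanked by S100a2 and S100a5, and S100a6 follows S100a5. S100a2, which was added after the values were seen, lay at a mean of 3.81 with a DOX minus Con difference of 0.12, and S100a5 lay at 3.75 with -0.11, both under the limit, where a fall cannot be read. Of 18 nearest protein-coding neighbours outside the family, 15 were measured, and by limma 1 was called lower and 1 higher in DOX minus Con, where 7.53% of all genes were called lower and 8.06% higher. Ilf2, a double-stranded RNA binding factor that lies further from the cluster than Chtop, fell by 0.62 (SE 0.11, adjusted p = 0.00535). Chtop, a chromatin-associated protein of messenger RNA export beside S100a1, rose by 0.20 (SE 0.05, adjusted p = 0.0379). Snapin, between them, differed by 0.00. None of the 15 was called in DOX_IFNg minus DOX.

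**Figure D3:**
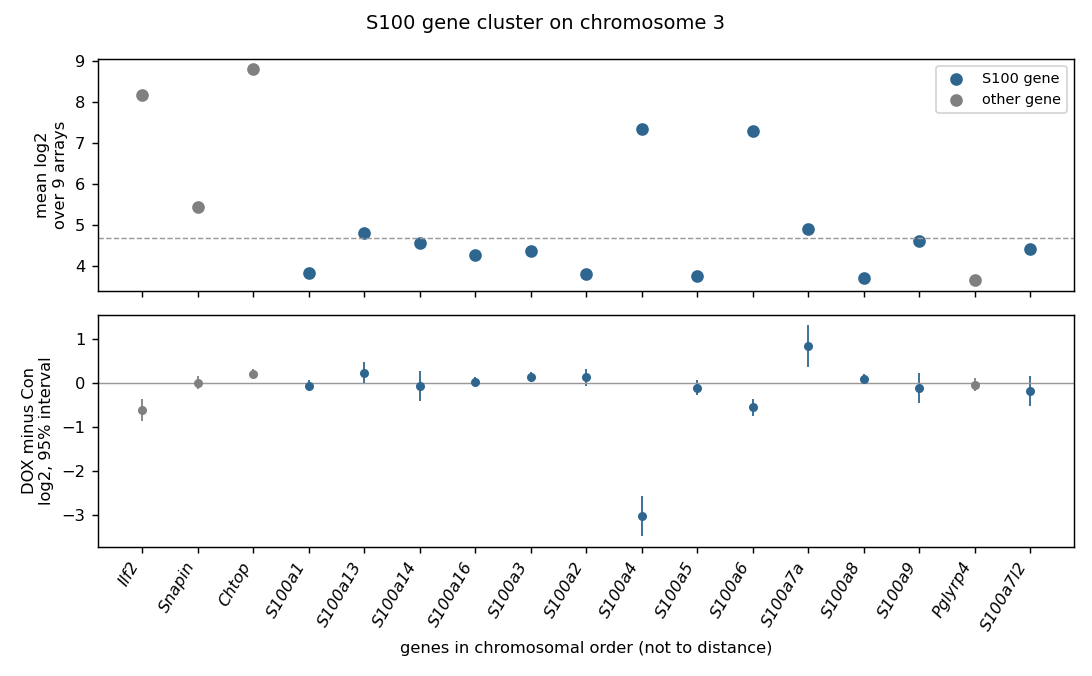
Mean log2 expression over the 9 arrays (top) and DOX minus Con with 95% intervals (bottom) of measured genes in their order along the S100 cluster of chromosome 3, not to distance. S100 genes are blue and others grey, and the dashed line is the receptor limit; S100a4 (-3.03) and S100a6 (-0.56) lie on either side of the dim S100a5 (-0.11).

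Genes whose profile over the 9 arrays came closest to a member were found by the root mean square difference between log2 values centred on each gene's mean, over 18259 protein-coding genes. For S100a4 the closest were Myog, the myogenic transcription factor (0.27 log2 units), Plk1, a mitotic kinase (0.40), Mcm6, a replicative helicase subunit (0.45), Rrm1, the catalytic subunit for making deoxyribonucleotides (0.47), and Mcm5 (0.56), where the median gene was at 1.60. For S100a4, 0 genes lay within 0.2. S100a4 ranked 2 from the lowest of protein-coding genes in DOX minus Con. The measure depends on the size of the fall, so no shared pattern is read from its closest genes. Group means of Myog were 8.18, 4.76 and 4.61 and those of Plk1 9.53, 6.74 and 6.64 in Con, DOX and DOX_IFNg. Between DOX_IFNg and DOX these 5 genes differed by -0.15 to -0.03 and S100a4 by -0.58. For S100a6 the closest were Psma7, a proteasome subunit (0.04), Puf60, a splicing factor (0.06), Cdh15, the muscle M-cadherin (0.06), Sec13, a coat and nuclear pore protein (0.06), and Ost4, a subunit of the oligosaccharyltransferase (0.06), but 1004 genes lay within 0.2, so many other genes were nearly as close. For S100b the closest were the odorant receptor Olfr666 (0.06), the predicted gene Gm20825 (0.08), Tbxas1, thromboxane synthase (0.08), Gspt1, a translation termination factor (0.08), and Mrgprb4, a sensory neuron receptor (0.09), and 10396 genes lay within 0.2. The profiles share the same 9 arrays.

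**Figure D4:**
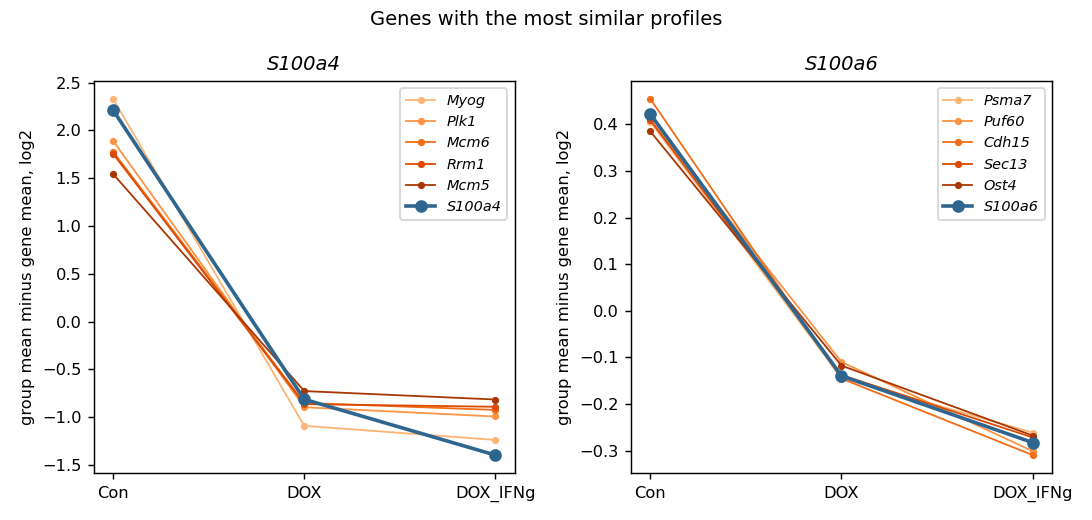
Group means minus each gene's mean over the groups, in log2 units (y axis), for Con, DOX and DOX_IFNg (x axis). S100a4 (left) and S100a6 (right) are in blue and the 5 closest genes of each in orange shades; on the left only the blue line falls by more than 0.5 from DOX to DOX_IFNg.

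Markers of fibroblasts and skeletal muscle differed in both directions beside S100a4. In DOX minus Con, limma called 7.53% of all genes lower and 8.06% higher, and 33.0% of genes above the receptor limit either way. Of 9 measured fibroblast markers, 4 fell, 2 rose and 3 did not pass in DOX minus Con by limma. Their summed level on the linear scale, which the collagens dominate, lay between 213361 and 254416 on Con arrays, between 104613 and 113000 on DOX arrays and between 103326 and 106463 on DOX_IFNg arrays. The collagen Col3a1 fell by 1.87, while Ddr2 rose by 0.91 and Thy1, which lay under the limit, by 0.21. The summed level of 7 skeletal muscle markers lay between 785 and 935 in Con, 428 and 495 in DOX, and 382 and 433 in DOX_IFNg. In DOX minus Con 4 of these markers were called lower and 1, Myod1, higher (0.76). Leukocyte markers (summed level 159 to 165 in Con, 169 to 182 in DOX, 161 to 170 in DOX_IFNg; Cd14 the only one above the limit) and glia and Schwann cell markers (73.7 to 78.6, 71.9 to 78.9 and 73.5 to 78.1) had 1 gene called in all, Cd14, which rose by 0.25 (adjusted p = 0.0483). The part of these markers in the S100a4 difference was not tested, and in RNA of a whole culture fewer cells of a type and less RNA per cell cannot be told apart.

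Annexins, calcium-dependent membrane binders several of which pair with S100 proteins, changed in both directions. Of 11 measured annexins, 3 fell, 3 rose and 5 did not pass in DOX minus Con by limma (54.5% called, against 15.6% of all genes), with a median of -0.04. Anxa5, which binds phosphatidylserine, had a Con mean of 8.73 ± 0.10 and a DOX mean of 7.71 ± 0.12 (SD, n = 3) and fell by 1.02 (SE 0.10, adjusted p = 0.000281). Anxa1, a known partner of S100a11, fell by 0.96 (SE 0.16, adjusted p = 0.00458), and Anxa6 fell by 0.91 (SE 0.14, adjusted p = 0.00248). Anxa4 rose by 0.50 (SE 0.09, adjusted p = 0.00793), as did Anxa3 and Anxa8 by less. Anxa2, the partner of S100a10, lay at 8.53 ± 0.09 in Con and 8.19 ± 0.11 in DOX and did not pass (-0.34, SE 0.11, adjusted p = 0.0704). It passed under 7 of 17 alternative settings, with array weights for example (adjusted p = 0.0250).

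Of 8 measured surface receptors that extracellular S100 proteins can use, 2 rose and 6 did not pass in DOX minus Con by limma (25% called, against 15.6% of all genes), with a median of 0.09. The DOX and Con arrays did not overlap in 4 receptors that were higher and in 2 that were lower, Nptn (-0.29, named after its values were seen) and Ager. Of all genes, 15.7% were separated in this way upward and 17.2% downward. Alcam, an adhesion molecule related to the receptor Ager, rose by 1.17 (SE 0.11, adjusted p = 0.000191); its means were 6.04 ± 0.15 and 7.21 ± 0.11 (SD, n = 3). Mcam, a receptor of S100a8 and S100a9, rose by 0.49 (SE 0.06, adjusted p = 0.000966). Ager itself, the best studied S100 receptor, was under the limit at 4.49 ± 0.05 in Con and 4.35 ± 0.05 in DOX and did not pass (-0.14, adjusted p = 0.165).

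Of 12 measured intracellular binding partners, 3 fell, 2 rose and 7 did not pass (41.7% called, against 15.6% of all genes), with a median of 0.02. Atp2a2, the calcium pump that S100a1 binds, fell by 0.73 (SE 0.07, adjusted p = 0.000160). Cacybp, the calcyclin-binding protein named for S100a6, fell by 0.56 (SE 0.11, adjusted p = 0.00742), and Ppfibp1, a liprin that binds S100a4, fell by 0.41 (SE 0.06, adjusted p = 0.00290). Mdm2, the ubiquitin ligase of p53 and itself a p53 target, rose by 0.64 (SE 0.09, adjusted p = 0.00168). Trp53, Myh9, Ahnak, Stub1 and Stk38 had no cluster with a single symbol and were not analysed here. Of all genes above the limit 33.0% were called, and 7 of the 12 partners and 8 of the 11 annexins lay above it.

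EF-hand proteins outside the S100 family moved in both directions as well. Of 23 measured, 7 rose, 5 fell and 11 did not pass in DOX minus Con (52.2% called, against 15.6% of all genes), with a median of -0.04, and 19 lay above the limit. Rcn3, a calcium-binding protein of the secretory pathway, fell by 1.74 (SE 0.08, adjusted p = 1.07e-05); its means were 11.93 ± 0.09 and 10.18 ± 0.04 (SD, n = 3). Vsnl1, a neuronal calcium sensor, rose by 1.26 (SE 0.20, adjusted p = 0.00294), and Nucb1, a Golgi calcium binder, rose by 0.66 (SE 0.09, adjusted p = 0.00151). Ncs1, a calcium sensor of neurons and heart, fell by 0.74 (SE 0.07, adjusted p = 0.000145). In DOX_IFNg minus DOX limma called 0 genes in each of these 4 lists, with 0 annexins, 1 receptor, 0 partners and 2 EF-hand genes at an unadjusted p under 0.05.

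**Figure D5:**
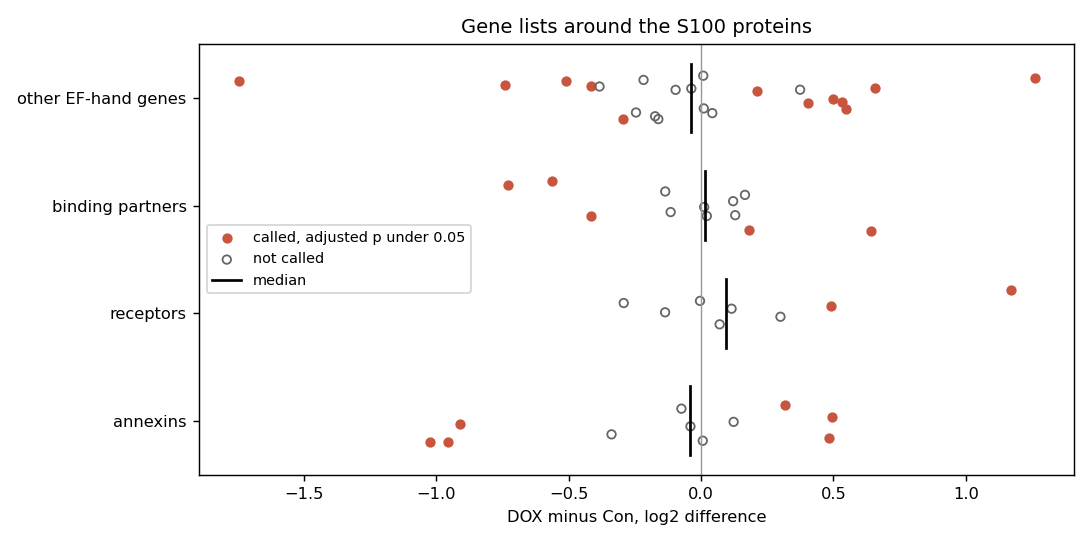
DOX minus Con log2 differences (x axis) of measured genes in 4 lists (y axis): annexins, receptors of extracellular S100 proteins, intracellular binding partners and other EF-hand genes. Filled points passed limma at an adjusted p under 0.05, open points did not, vertical bars are medians, and points are spread vertically only for legibility; called genes lie on both sides of zero in every list except the receptors, where both lie to the right.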

How the data were processed

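Total RNA of 9 HL-1 samples was hybridised to Affymetrix mouse transcript arrays. The authors deposited 1 table of log2 values, made with RMA per the submitters' processing notes. No version or settings of RMA are stated in those notes. That the scale is log2 was inferred from RMA and the range (2.29 to 19.9), and fold changes rest on that inference. Why several arrays share a highest value of exactly 19.9315 was not tested. Steps besides RMA may have shaped the values. RMA corrects background, normalizes between arrays and summarizes probes, and it compresses differences of dim probes. The values were used unchanged. Of 65527 clusters, 30376 carried 1 gene symbol, 2117 several, and the rest were unnamed here. For 245 genes with several clusters the one with the highest mean was kept, which left 30050 genes. RefSeq tables (GRCm38.p6) gave gene types, gene order and promoter windows.

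Group means were fitted to all arrays with limma 3.58.1 (lmFit, eBayes; R 4.3.3), two-sided, with Benjamini-Hochberg adjustment over all genes and a threshold of 0.05. The median gene had a 95% interval of ±0.19 log2. Precision is limited by there being 3 arrays a group. The members and lists were chosen with earlier results of these data known. The text names all members, every other S100 gene of a prepared list, up to 4 called genes per other list by size, Anxa2, Ager and Atp2a2, nearest neighbours that were called, and the 5 closest profiles of 3 members. Other genes named, such as Irf1, Snapin, Anxa3, Anxa8, S100pbp and single cell type markers, fall outside this rule. Alternatives covered normalization, filters, blocks, array weights and left-out arrays.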

Additional observations from a re-analysis of the deposited data

How the results depend on the processing

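The 17 alternatives were quantile normalization, a filter on dim genes, protein-coding genes only, the replicate number as a block, the compared groups alone, the shared highest array value as a term, array weights, means over clusters, and leaving out each array in turn. S100a4 and S100a6 kept their direction and limma call in DOX minus Con and DOX_IFNg minus Con under all of them. S100a4 ranged from -3.19 to -2.82 and S100a6 from -0.63 to -0.52 in DOX minus Con. With the replicate block, 4472 genes were called in DOX minus Con in place of 4687, and 2 members as before. Correlations between the deviations of same-numbered arrays ran from -0.311 to 0.545. The highest were Con with DOX_IFNg for replicates 1 (0.545) and 3 (0.481). Arrays of different number ran from -0.574 to 0.426. Whether the number marks a pairing cannot be told from these values, and the block changed no count of members. The count of S100 genes outside the members called in DOX minus Con moved from 1 to 0 with the compared groups alone and with the array value as a term, and lay between 0 and 1 over left-out arrays. That of receptors moved from 2 to 4 with array weights. In DOX_IFNg minus DOX, 0 to 1 genes of all were called over left-out arrays, the 1 being Olfr1208 without Con replicate 3. No call reversed direction. Probes near the receptor limit restrict what S100a1, S100a10, S100a13 and S100b can show.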

Other observations

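S100pbp, which encodes a binding partner of the human protein S100P and is no S100 gene itself, lay above the receptor limit at 5.45 ± 0.07 in Con, 5.49 ± 0.09 in DOX and 5.52 ± 0.05 in DOX_IFNg (SD, n = 3). It was not called in any comparison (limma adjusted p from 0.509 to 0.991).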
